A study of Mus musculus with 14 samples.

Results

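The genes examined here are 9 close neighbours of Klf1 on mouse chromosome 8, namely Dnase2a, Gcdh, Farsa, Calr, Prdx2, Junb, Hook2, Lyl1 and Nfix, out of 12393 genes with a probe set of their own on the array. They were listed for their position near Klf1, with earlier results of these data known. Not every near gene was taken: Syce2 and Mast1, each measured and 2 genes from Klf1, were left out. The question was whether the messenger RNA of the 9 genes differs in cells that carry a targeted Klf1 allele. All 16 probe sets paired with 1 of these genes alone were taken from the 22626 non-control probe sets. Of the 9 genes, 6 had 1 probe set, Prdx2 had 2, Calr had 3 and Nfix had 5.

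The samples were erythroid precursors of the yolk sac at embryonic day 9.5, all labelled strain FVB/N and cell type erythroid cells. There were 8 wild-type arrays, 3 arrays labelled KLF1-/- and 3 labelled KLF1-/- KLF2-/-, so both mutant groups share the KLF1 genotype and the last also carries that of KLF2, a second gene of chromosome 8. Mutant embryos came from heterozygous females, no treatment agent is named, and cells were cut by laser from 8 micrometre frozen sections. Each sample pooled 2 to 4 yolk sacs from 2 litters, and 10 to 20 ng of RNA went through a labelling reaction with repeated amplification from the poly(A) end. Whether samples shared litters was not given, so p-values measure the spread between these samples.

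KLF1 is a zinc finger transcription factor of red cells that switches on globin, haem and membrane genes through CACCC-type elements, and KLF2 is a related factor. A targeted allele can carry an inserted cassette and flanking chromosome of the cells in which it was made, and for that reason the genes next to a targeted locus are of interest as a control. Klf1 itself sits in a dense stretch of chromosome 8 that mixes housekeeping enzymes with transcription factors of blood and stress responses.

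In the RefSeq gene table (GRCm38.p6), counting protein-coding genes only, Gcdh lies 1 gene before Klf1 and Dnase2a 1 gene after it. Farsa and Calr follow 3 and 4 genes before Klf1, with Nfix 8 and Lyl1 9 before. On the other side Prdx2, Junb and Hook2 lie 5, 6 and 7 genes after. Klf1, Dnase2a, Farsa, Prdx2, Hook2 and Lyl1 are read from the plus strand, whereas Gcdh, Calr, Junb and Nfix are read from the minus strand. Gcdh and Klf1 therefore point away from each other.

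To show the elements that the 2 flanking genes and Lyl1, the neighbour with the largest difference from all wild-type arrays, carry, the 250 bases before the start of Klf1, Gcdh, Dnase2a and Lyl1 are printed from RefSeq (GRCm38.p6), 5′ to 3′ along each gene's strand. Capitals mark matches to CCNCNCCC on either strand (GGGNGNGG on the other), a short CACCC-type and GC-rich pattern that also covers sites of other zinc finger factors of the SP family, with overlapping matches counted.
Klf1 (chr8:84901732-84901981, plus strand): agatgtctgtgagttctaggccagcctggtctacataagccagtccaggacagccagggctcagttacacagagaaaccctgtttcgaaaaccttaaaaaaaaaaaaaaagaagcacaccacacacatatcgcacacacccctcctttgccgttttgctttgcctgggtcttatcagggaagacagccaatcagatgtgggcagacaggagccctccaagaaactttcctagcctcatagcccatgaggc
Gcdh (chr8:84893922-84894171, minus strand): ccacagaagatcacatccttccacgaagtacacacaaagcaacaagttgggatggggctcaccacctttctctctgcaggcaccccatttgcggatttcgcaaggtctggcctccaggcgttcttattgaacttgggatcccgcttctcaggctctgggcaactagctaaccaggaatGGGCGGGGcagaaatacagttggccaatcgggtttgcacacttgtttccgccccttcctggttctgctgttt
Dnase2a (chr8:84908505-84908754, plus strand): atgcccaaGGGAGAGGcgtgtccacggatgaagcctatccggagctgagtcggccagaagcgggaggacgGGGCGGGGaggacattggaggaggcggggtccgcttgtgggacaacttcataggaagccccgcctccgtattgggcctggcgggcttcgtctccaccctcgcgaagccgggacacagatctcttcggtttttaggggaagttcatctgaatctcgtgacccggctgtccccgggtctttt
Lyl1 (chr8:84701207-84701456, plus strand): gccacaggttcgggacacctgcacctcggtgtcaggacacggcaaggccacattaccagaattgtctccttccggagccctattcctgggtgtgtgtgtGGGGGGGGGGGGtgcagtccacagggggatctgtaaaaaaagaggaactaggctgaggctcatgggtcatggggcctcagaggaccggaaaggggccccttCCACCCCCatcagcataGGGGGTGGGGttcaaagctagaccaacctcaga
Gcdh held 1 match, Dnase2a 2 and Lyl1 8, of which most overlap in runs of G, and Klf1 held 0. Of the 12 promoters that the table holds for the 9 neighbours, 10 (83.3%) had at least 1 match, and that of Farsa had 0. Of all 32851 promoters of that length in the table, 45.9% had one. A match of this kind is a description of letters and shows neither binding nor regulation.

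The targeted gene was read first. Klf1 (1418600_at) had a log2 value of 10.05 at the lowest, 10.48 at the median and 11.82 at the highest of the wild-type arrays. It read 9.53, 9.79 and 9.03 on the KLF1-/- arrays 5, 6 and 8, and 9.29, 9.59 and 8.56 on the KLF1-/- KLF2-/- arrays 13, 14 and 15. All 6 mutant arrays lay below all wild-type arrays. The mean of both mutant genotypes minus wild type was -1.37 log2 units (95% interval -1.97 to -0.77), with an adjusted p of 0.151 in limma over all probe sets, so Klf1 did not pass the threshold of 0.05. Whether this probe set lies in the deleted part of the gene was not given, and a remaining signal therefore checks the label only in part. Klf2 (1448890_at) averaged 6.25 ± 0.25 (SD, n = 8) in wild type, 6.22 ± 0.28 (n = 3) in KLF1-/- and 6.69 ± 0.32 (n = 3) in the group labelled KLF1-/- KLF2-/-. Klf2 was thus not lower where the label says it is absent. Its probe set was dim, at a mean of 6.34 below the median level of all probe sets (6.62), where differences are compressed. Whether it lies in the deleted part of Klf2 was not given either, so this reading cannot check the label. Klf2 was 0.44 higher than in all wild-type arrays (95% interval 0.06 to 0.82, adjusted p 0.9999 in limma) and 0.55 higher than in wild-type arrays 9 to 12. Every direction given for that group rests on its label.

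None of the 16 neighbour probe sets was called in any comparison, a call being an adjusted p under 0.05 in limma with Benjamini-Hochberg adjustment over all 22626 probe sets. In KLF1-/- minus wild type, the neighbours ran from -0.16 to 0.44 log2 units, with 10 of 16 above 0, against a background of 6 called probe sets (0.0265%). In KLF1-/- KLF2-/- minus wild type they ran from -0.30 to 0.36, with 8 above 0, and 5 probe sets of all were called (0.0221%). For the mean of both mutant genotypes they ran from -0.17 to 0.40, again with 8 above 0, against 16 calls over all probe sets (0.0707%). Between KLF1-/- KLF2-/- and KLF1-/-, the differences ran from -0.32 to 0.20, with 4 of 16 above 0, and no probe set of the array was called (0.0%), its smallest adjusted p being 0.0872, while 142 probe sets had an unadjusted p under 0.05 (0.628%) and 0 neighbours did. Over the brightest probe set of each of the 12393 genes, 52.1% lay above 0 in KLF1-/-, 52.1% in KLF1-/- KLF2-/-, 51.7% in their mean and 50.1% between the mutant groups. Several of the 16 probe sets measure the same gene, so their signs are not independent. All 3 comparisons with wild type use the same 8 control arrays. The mutant groups fall in different runs of title numbers, described below.

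With so few calls, the intervals say more than the tests. For the mean of both mutant genotypes, the 95% intervals of the neighbours together spanned -0.50 to 0.80 log2 units, so a difference as low as the -1.37 of Klf1 lay outside every one of them. However, 8 of the 16 probe sets were dim, below the median level of the array, where differences are compressed. For those, the interval does not show that the RNA fell by less than that of Klf1. The lowest bound of any neighbour was -0.61 in KLF1-/- and -0.71 in KLF1-/- KLF2-/-. At an unadjusted p under 0.05, 0 of 16 neighbour probe sets stood out in KLF1-/- (1.92% of all probe sets did), 1 in KLF1-/- KLF2-/- (Hook2; 2.11% of all) and 1 in the mean of both (Lyl1; 2.76% of all). Over the brightest probe set of each gene, the median difference of the 9 neighbours was 0.03 in KLF1-/-, 0.04 in KLF1-/- KLF2-/- and 0.02 in their mean. Over all 12393 genes the medians were 0.01, 0.01 and 0.00.

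**Figure D1:**
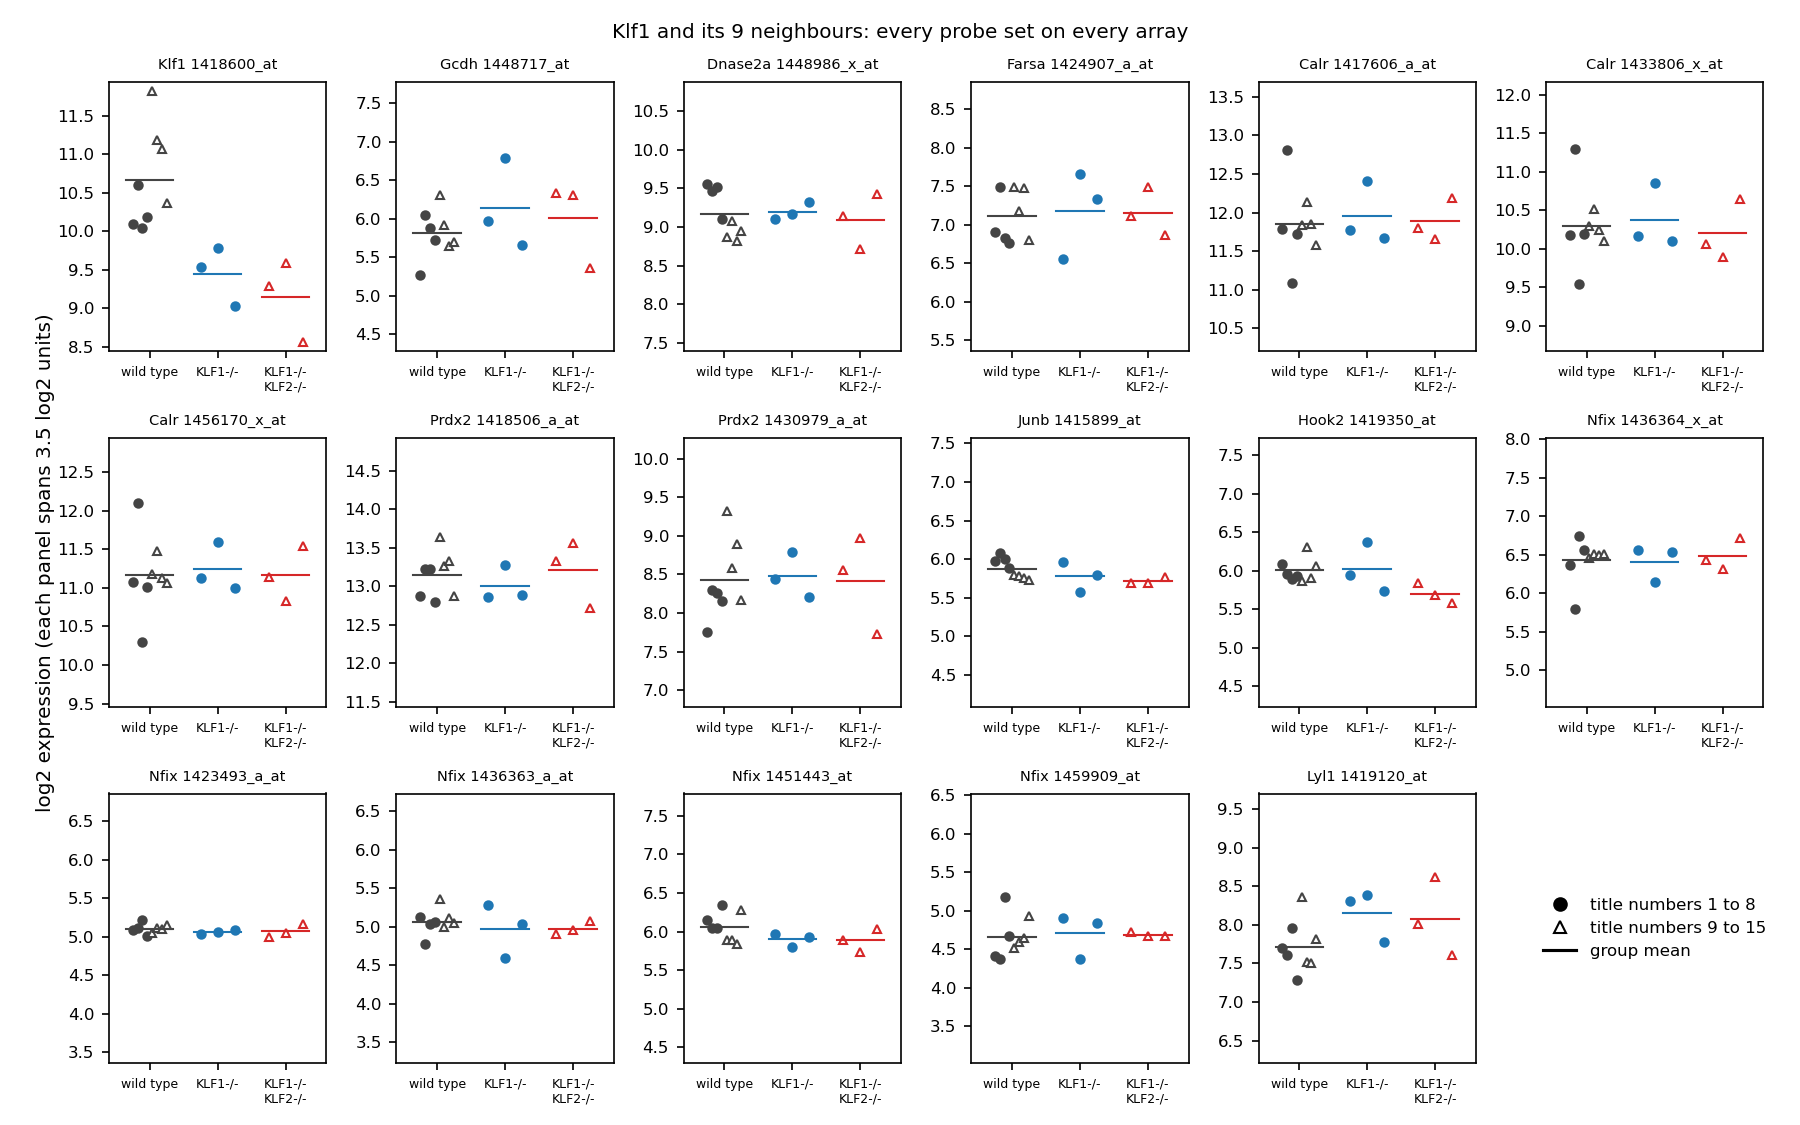
Each panel plots the log2 expression of 1 probe set on each of the 14 arrays by genotype, for Klf1 and its 9 neighbours, on axes that all span the same 3.5 log2 units; filled circles are arrays with title numbers 1 to 8, open triangles 9 to 15, and the bar is the group mean. Klf1 is the panel in which all 6 mutant arrays lie below all wild-type arrays, and in Hook2 the 3 KLF1-/- KLF2-/- arrays do so by a small margin.

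The arrays fall into a pair of runs by the numbers in their titles: 1 to 8 hold wild-type arrays 1 to 4 and all KLF1-/- arrays, and 9 to 15 hold wild-type arrays 9 to 12 and all KLF1-/- KLF2-/- arrays. The labels do not say what the numbers stand for. Among wild-type arrays alone, 1792 probe sets (7.92%) differed between the runs at an unadjusted p under 0.05, though none passed adjustment (smallest adjusted p 0.296 in limma). Each neighbour is therefore also given against the wild-type arrays of its own run, which is what a fit with the run as a block gives here. For Klf1 the difference was -1.22 in KLF1-/- and -1.52 in KLF1-/- KLF2-/- against all wild-type arrays, and -0.78 and -1.96 against the same run, so the KLF1-/- value was over 1.5 times smaller within its run. In the fit with the block, limma gave Klf1 an adjusted p of 0.9998 in KLF1-/-, 0.0811 in KLF1-/- KLF2-/- and 0.0429 for their mean, which was -1.37 in both fits, and no neighbour was called. KLF1-/- KLF2-/- minus KLF1-/- compares arrays of different runs, so without the block genotype and run cannot be told apart in it. With the block, its neighbour differences ran from -0.68 to 0.38.

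Gcdh, directly upstream of Klf1, encodes glutaryl-CoA dehydrogenase, a mitochondrial enzyme of lysine and tryptophan breakdown. Its log2 value in wild type was 5.27 at the lowest, 5.80 at the median and 6.31 at the highest. KLF1-/- arrays read 5.97, 6.79 and 5.66, and KLF1-/- KLF2-/- arrays 6.34, 6.31 and 5.36. KLF1-/- array 6 and KLF1-/- KLF2-/- array 13 lay above all wild-type arrays, array 14 lay at the top of their range and the other 3 inside it, so the groups overlapped. The difference was 0.33 (SE 0.262, 95% interval -0.23 to 0.89) in KLF1-/- and 0.19 (-0.37 to 0.75) in KLF1-/- KLF2-/-, and 0.41 and 0.11 against wild-type arrays of the same run. For the mean of both it was 0.26, a 1.20-fold level with an interval of 0.878 to 1.63. Gcdh is a dim probe set, below the median level of all probe sets (6.62), where differences are compressed.

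Dnase2a, directly downstream of Klf1, encodes the acid deoxyribonuclease of lysosomes, with which macrophages digest the nuclei that red cell precursors expel. Wild-type arrays 1 to 4 read 9.56, 9.47, 9.52 and 9.10, and wild-type arrays 9 to 12 read 8.87, 9.08, 8.82 and 8.95. The lowest array of the first run thus lay above the highest of the second, a separation that 737 probe sets (3.26%) showed in either direction. The wild-type runs differed by -0.48 (SE 0.153, limma adjusted p 0.421). KLF1-/- arrays read 9.10, 9.17 and 9.33, and KLF1-/- KLF2-/- arrays 9.15, 8.71 and 9.43. All mutant values lay inside the full wild-type range except the 8.71 of array 14, just below it. The difference was 0.03 (95% interval -0.37 to 0.43) in KLF1-/- and -0.08 (-0.48 to 0.33) in KLF1-/- KLF2-/-. Within a run both turned sign, to -0.21 and 0.17, so no direction can be given for this gene. For the mean of both mutant genotypes the difference was -0.02, with an interval of -0.34 to 0.30. Macrophage markers, a list of 18 of which 17 were measured, had a mean log2 level of 6.30 to 6.63 in wild type, 6.32 to 6.43 in KLF1-/- and 6.67 to 6.68 in KLF1-/- KLF2-/-. Over wild-type arrays 1 to 4 and then 9 to 12 they averaged 6.42 and 6.51, and visceral endoderm markers 11.41 and 10.69. The part of either list in Dnase2a was not tested.

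Farsa encodes the alpha subunit of phenylalanyl-tRNA synthetase, which loads phenylalanine onto its tRNA. Wild-type values were 6.77, 7.04 and 7.49 at the lowest, median and highest. The KLF1-/- values of 6.55, 7.66 and 7.34 spread beyond that range on both sides, and the KLF1-/- KLF2-/- values of 7.11, 7.48 and 6.87 lay inside it. The differences were 0.07 (SE 0.239, 95% interval -0.44 to 0.58) and 0.04 (-0.48 to 0.55). Own-run values were 0.19 and -0.08.

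Calr encodes calreticulin, a calcium-binding chaperone of the endoplasmic reticulum. Its brightest probe set (1417606_a_at) read 11.09, 11.81 and 12.81 at the lowest, median and highest of wild type. KLF1-/- arrays read 11.78, 12.41 and 11.66, and KLF1-/- KLF2-/- arrays 11.80, 11.66 and 12.19. All 6 mutant values lay inside the wild-type range, whose ends were wild-type arrays 3 and 2. The difference was 0.10 (SE 0.274, interval -0.49 to 0.69) in KLF1-/- and 0.03 (-0.55 to 0.62) in KLF1-/- KLF2-/-. Against the same run these were 0.10 and 0.03. The other probe sets of Calr gave 0.08 and 0.07 in KLF1-/-, and -0.09 and 0.00 in KLF1-/- KLF2-/- (0.07 and 0.12, then -0.09 and -0.04, against the same run), and all 3 probe sets shared the same low and high wild-type arrays.

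Prdx2 encodes peroxiredoxin 2, an abundant peroxide-removing enzyme of red cells. Its brighter probe set (1418506_a_at) read 12.79, 13.23 and 13.63 at the lowest, median and highest of wild type. KLF1-/- arrays read 12.86, 13.28 and 12.89 and KLF1-/- KLF2-/- arrays 13.33, 13.57 and 12.72, which overlap wild type almost fully. The differences were -0.14 (SE 0.199, interval -0.57 to 0.29) and 0.05 (-0.37 to 0.48). Against the same run they were -0.02 and -0.07, so the sign in KLF1-/- KLF2-/- turned. The highest value on each array, control probe sets included, was at least 14.2. Whether signals near the top of the scale were compressed was not tested.

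The dimmer probe set of Prdx2 (1430979_a_at) moved with the number run. Wild-type arrays 1 to 4 read 7.76, 8.30, 8.26 and 8.16, and wild-type arrays 9 to 12 read 9.33, 8.59, 8.89 and 8.17. The second run was 0.62 higher (adjusted p 0.612 in limma), with 1 array inside the range of the first. Against all wild-type arrays the difference was 0.04 in KLF1-/- and -0.01 in KLF1-/- KLF2-/-. Against the same run it was 0.36 and -0.33, and neither was called. Erythroid markers, a list of 15 of which 12 were measured, had a mean log2 level of 10.29 in the first wild-type run and 10.76 in the second. Klf1, which is 1 of the listed markers, read 10.23 and 11.11. Their part in the Prdx2 values was not tested.

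Junb, Lyl1 and Nfix are the transcription factors of the group. Junb, a subunit of the AP-1 complex that is induced within minutes of stimulation, was dim, and wild-type arrays 1 to 4 read 5.98, 6.09, 6.01 and 5.89. Wild-type arrays 9 to 12 read 5.79, 5.78, 5.76 and 5.73, all below the first run (difference -0.23, adjusted p 0.599 in limma). KLF1-/- arrays read 5.96, 5.57 and 5.80, and KLF1-/- KLF2-/- arrays 5.70, 5.69 and 5.77. The mutant values overlap the second wild-type run. The differences were -0.10 (SE 0.108, interval -0.33 to 0.13) and -0.16 (-0.39 to 0.07), and -0.22 and -0.04 against the same run. Of the 16 neighbour probe sets, 2 separated the wild-type runs without overlap, those of Dnase2a and Junb, against 737 of all (3.26%). At an unadjusted p under 0.05 in limma, 3 of 16 differed between the wild-type runs, against 7.92% of all probe sets.

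Lyl1, a basic helix-loop-helix factor of early blood progenitors related to Tal1, had the largest difference of the neighbours in each comparison of a mutant group with all 8 wild-type arrays. Against wild-type arrays of the same run this held in KLF1-/-, while in KLF1-/- KLF2-/- Hook2 (-0.34) and the dimmer probe set of Prdx2 (-0.33) differed by more. Wild type read 7.29, 7.66 and 8.36 at the lowest, median and highest. KLF1-/- arrays read 8.30, 8.38 and 7.78, and KLF1-/- KLF2-/- arrays 8.01, 8.62 and 7.61. In each mutant group 1 array exceeded the highest wild-type array, which was array 9, and the other values lay inside the wild-type range. The difference was 0.44 (SE 0.231, interval -0.06 to 0.94) in KLF1-/- and 0.36 (-0.13 to 0.86) in KLF1-/- KLF2-/-. Against the same run these were 0.52 and 0.28. The mean of both was 0.40 (SE 0.185, interval 0.00 to 0.80), a 1.32-fold level, with an adjusted p of 0.9999 in limma. Megakaryocyte and platelet markers, a list of 12 of which 10 were measured, had mean log2 levels of 6.97 to 7.35 in wild type, 7.34 to 7.52 in KLF1-/- and 7.54 to 7.92 in KLF1-/- KLF2-/-. Their part in the Lyl1 values was not tested.

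Nfix encodes a nuclear factor I protein, which acts in muscle, brain and blood progenitors. Its brightest probe set (1436364_x_at) read 5.80, 6.50 and 6.74 at the lowest, median and highest of wild type. Values were 6.56, 6.14 and 6.53 in KLF1-/- and 6.43, 6.31 and 6.72 in KLF1-/- KLF2-/-, all inside the wild-type range, with differences of -0.02 and 0.06, and 0.04 and -0.01 against the same run. All 5 probe sets were dim, with differences between -0.16 and 0.04 in KLF1-/- and between -0.17 and 0.06 in KLF1-/- KLF2-/-. Against the same run they lay between -0.25 and 0.05 and between -0.15 and 0.02. For 1451443_at, the KLF1-/- arrays read 5.97, 5.80 and 5.93, all below the 6.15, 6.05, 6.05 and 6.35 of wild-type arrays 1 to 4 and not below wild-type arrays 9 to 12. It was the only 1 of 16 neighbour probe sets with such a separation from its own run, which 670 probe sets (2.96%) showed in either direction. Its own-run difference was -0.25.

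Hook2 encodes an adaptor that links cargo to dynein motors on microtubules. Wild-type arrays read 5.86, 5.95 and 6.31 at the lowest, median and highest, and KLF1-/- arrays 5.94, 6.38 and 5.74. The KLF1-/- KLF2-/- arrays read 5.85, 5.68 and 5.58, all below wild type, though the nearest values were 5.85 and 5.86. It was 1 of 16 neighbour probe sets with all 3 of these arrays beyond all wild-type arrays (158 probe sets, 0.698%, were so in either direction), and 1 of 16 beyond wild-type arrays 9 to 12 (983, 4.34%). No neighbour had all 3 KLF1-/- arrays beyond all wild-type arrays (116 probe sets, 0.513%, did). The difference was -0.30 (SE 0.135, interval -0.59 to -0.01, adjusted p 0.9999 in limma) in KLF1-/- KLF2-/- and 0.02 (-0.27 to 0.31) in KLF1-/-. Against the same run these were -0.34 and 0.05, and the first no longer had an unadjusted p under 0.05. Tested directly, KLF1-/- KLF2-/- minus KLF1-/- was -0.32 (SE 0.162, interval -0.67 to 0.03), which is not a called difference between the mutant groups. These lie in different runs, and with the run as a block the difference was -0.39.

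**Figure D2:**
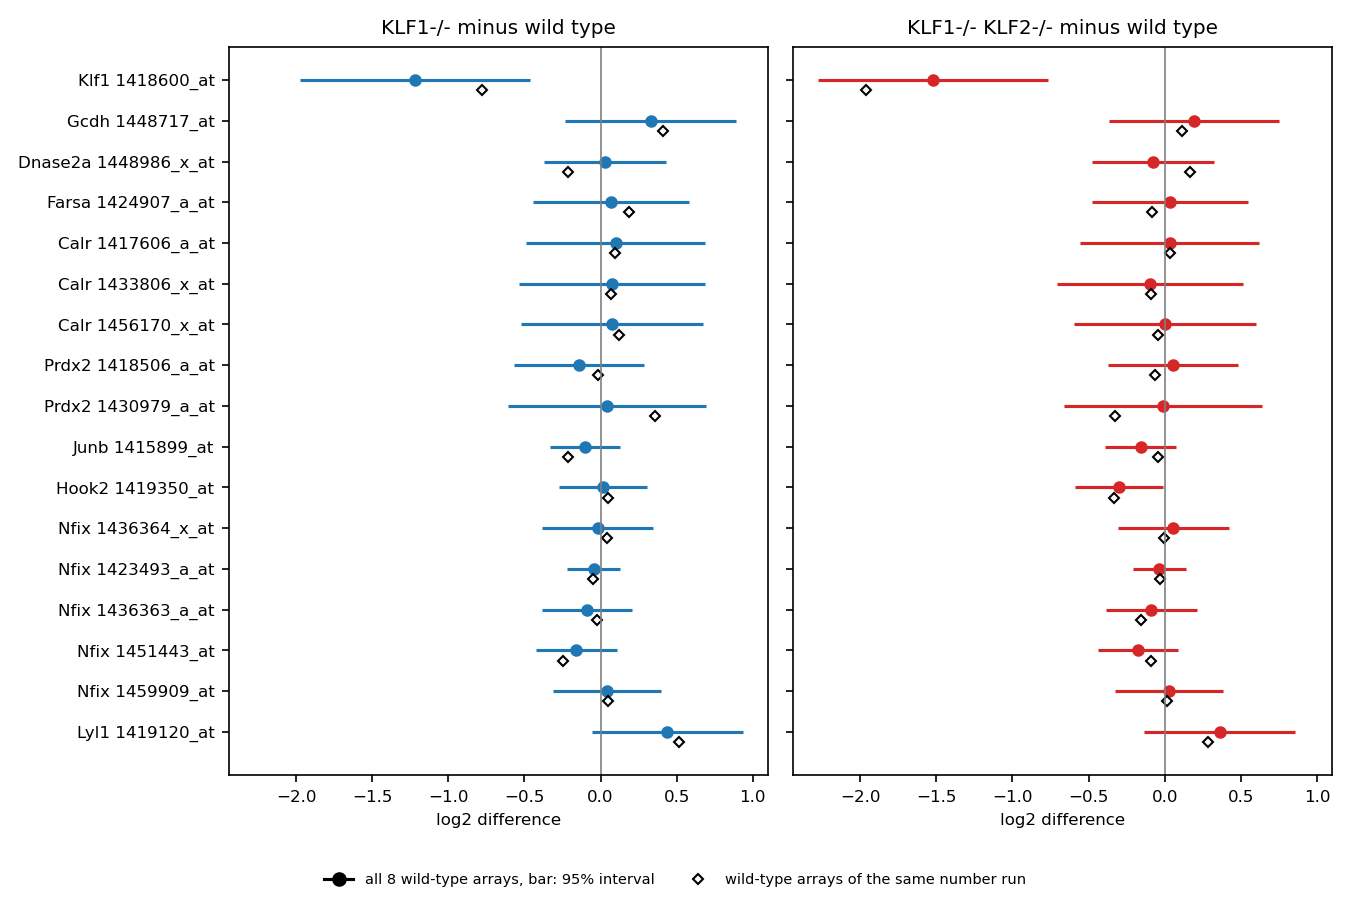
Circles are log2 differences from all 8 wild-type arrays with their 95% intervals (bars) for Klf1 and the 16 neighbour probe sets, on the left in KLF1-/- and on the right in KLF1-/- KLF2-/-; open diamonds are the differences from the wild-type arrays of the same number run. The interval of Klf1 lies below 0 in both panels, and among the neighbours that of Hook2 ends just below 0 on the right (-0.01).

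Between them the neighbours covered most of the array's range, and their order by level can only be read probe set by probe set. The brighter probe sets, 8 of 16 above the median level of the array, belonged to Prdx2, Calr, Dnase2a, Lyl1 and Farsa. Gcdh, Junb, Hook2 and all of Nfix lay below it.

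Of the other 31 protein-coding genes within 20 genes of Klf1 on either side, 20 had a probe set, and 0 were called in any comparison. Their median difference was -0.02 in KLF1-/-, with 9 above 0, and -0.07 in KLF1-/- KLF2-/-, with 7 above 0. The smallest p-values of the mean comparison fell on Dhps, the first enzyme of hypusine synthesis (-0.34), and Man2b1, the lysosomal alpha-mannosidase (0.24). Within 5 genes of Klf1 on either side, 8 genes were measured and their median in the mean comparison was 0.01. Within 10 genes, 17 were measured, and 0 had a limma unadjusted p under 0.05 in KLF1-/-. In KLF1-/- KLF2-/- 2 did (11.8%), Hook2 at -0.30 and Gadd45gip1, not among the 9, at -0.31. Neither was called. Of all 12393 genes, 205 were higher and 92 lower at that p in the same comparison. Within 5 genes of Klf1 0 of 8 measured genes did, and within 20 genes 2 of 29 (6.9%). Klf1 stood alone below -1 in this stretch, as the plot of differences in gene order shows.

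Klf2 lies 96 genes before Klf1 on the same chromosome, and its own neighbours served as a comparison. Of the 40 genes around it, 25 were measured and 0 were called. Their median difference was 0.07 in KLF1-/-, which is not labelled as a KLF2 mutant, and 0.03 in KLF1-/- KLF2-/-. Eps15l1, an endocytic adaptor next to Klf2, was 0.41 higher in KLF1-/- and 0.39 in KLF1-/- KLF2-/-, and the mean of 0.40 had an adjusted p of 0.628 in limma. Tpm4, a tropomyosin, gave 0.36 and 0.54.

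**Figure D3:**
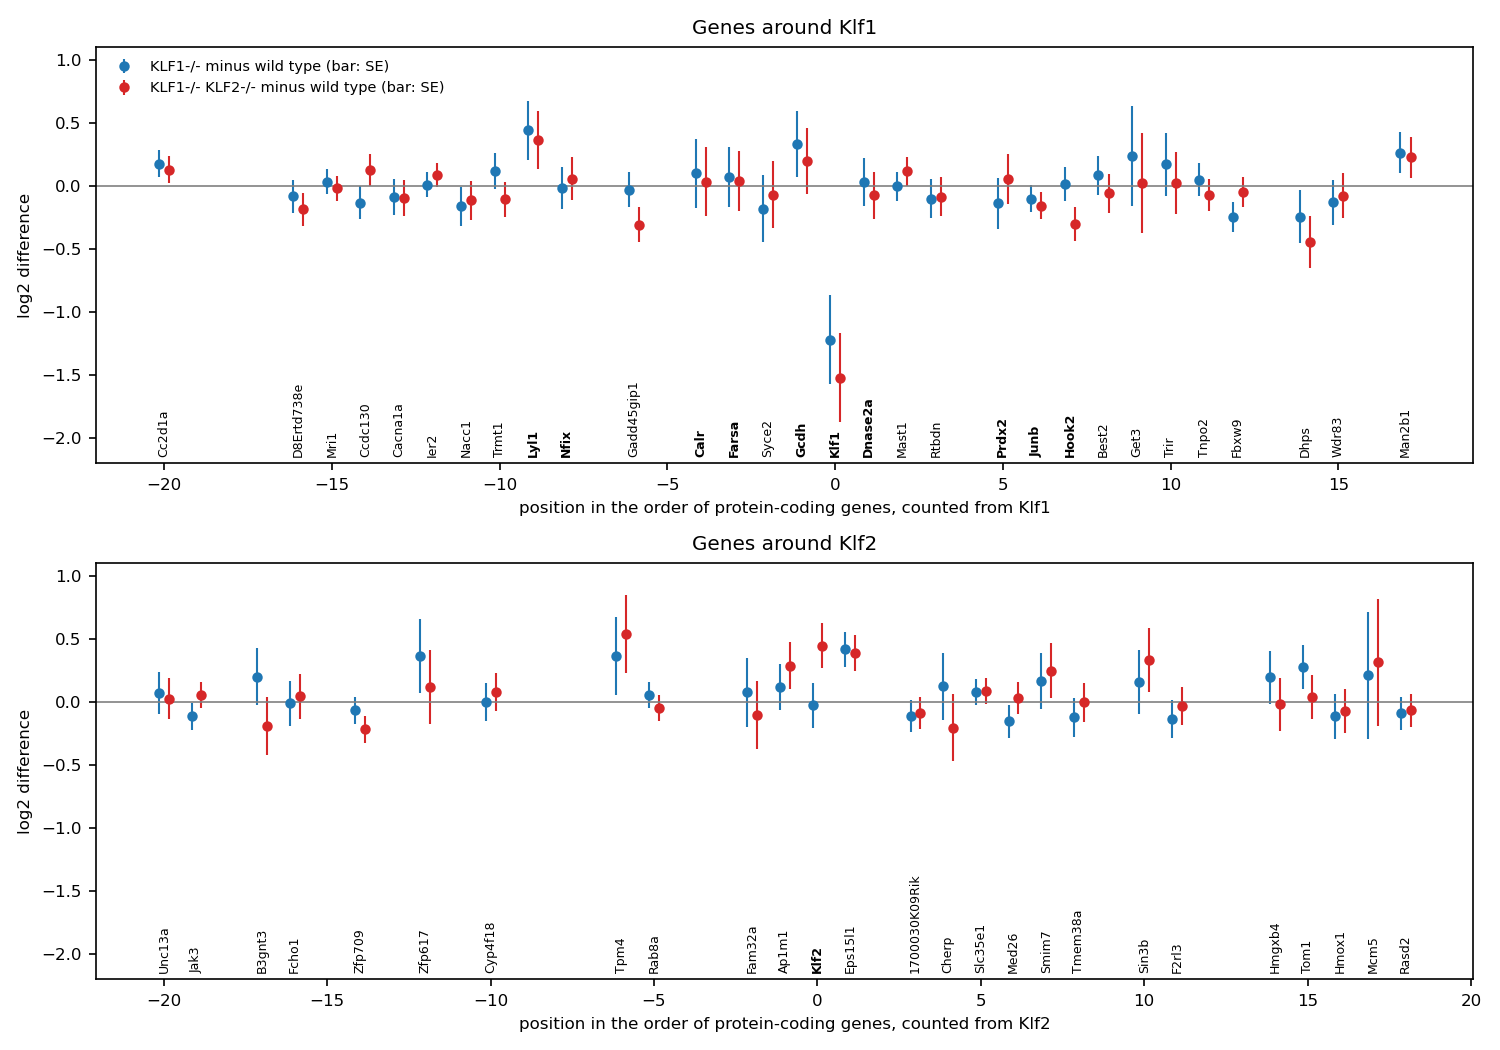
Log2 differences from wild type (points, with SE bars; blue KLF1-/-, red KLF1-/- KLF2-/-) for each measured gene within 20 genes of Klf1 (top) and of Klf2 (bottom), in chromosome order, with the locus and the 9 neighbours in bold. Klf1 lies at -1.22 and -1.52, and the other genes of the top panel stay between -0.44 and 0.44.

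Over chromosome 8, 639 genes other than Klf1 and Klf2 were measured, with a median of 0.01 in the mean comparison and 1 call. The call was Adcy7, an adenylyl cyclase that makes cyclic AMP, which lies 40 genes after Klf1 and was named after its value was seen. Its bright probe set averaged 8.62 ± 0.42 (SD, n = 8) in wild type and fell by 2.17 in KLF1-/- (limma adjusted p 0.00519). In KLF1-/- KLF2-/- the difference was -1.61 (adjusted p 0.0586 in limma). In that group the gene called on chromosome 8 was instead Tcim, 423 genes before Klf1 (difference -1.42, limma adjusted p 0.0358), also named after its value was seen. The other probe sets of Adcy7 gave -0.05 and -0.71 in KLF1-/- and were not called. None of the 9 neighbours, all far closer to Klf1, showed a difference of that size.

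**Figure D4:**
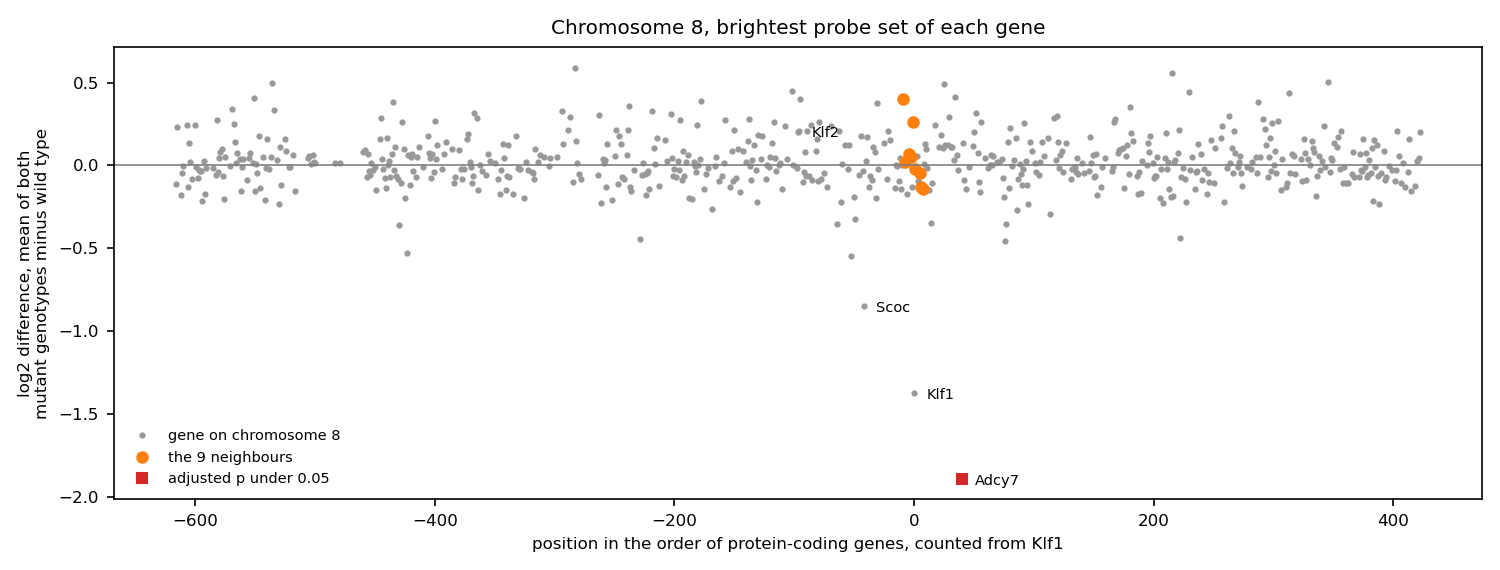
Each point is the brightest probe set of 1 gene of chromosome 8, placed by its position in the order of protein-coding genes counted from Klf1 (x axis) and by the log2 difference of the mean of both mutant genotypes from wild type (y axis). The 9 neighbours (orange) lie between -0.14 and 0.40, Klf1 at -1.37 and Adcy7, the called gene (red square), at -1.89.

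Genes that work with each neighbour were counted from lists fixed by function, and 0 genes of these lists were called in any comparison. Beside Junb, 15 AP-1 subunits and immediate early genes were measured, with a median of -0.04 in the mean comparison, where 4 of the 15 had an unadjusted p under 0.05 (1 higher, 3 lower), against 383 of all 12393 genes (3.09%). In it Jun gave 0.40 (limma adjusted p 0.43) and Myc -0.67. Beside Calr, 13 of 15 chaperones and folding enzymes of the endoplasmic reticulum had a median of 0.09, from -0.24 for Canx, which encodes calnexin, to 0.61 for Hsp90b1. Beside Lyl1, 15 genes of blood transcription regulation had a median of 0.05, with Gata1 at 0.45 and Mef2c at 0.42.

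Beside Gcdh, 14 of 16 genes of lysine and tryptophan breakdown had a median of 0.05, with Aldh7a1 at 0.47 and Acat1 at 0.29. Beside Prdx2, 14 of 17 peroxiredoxins and thioredoxin partners had a median of 0.08, with the mitochondrial Prdx3 at 0.59 and Prdx4 at 0.35. Beside Farsa, 17 of 19 aminoacyl-tRNA synthetase genes had a median of 0.03, with Qars at 0.33 and Nars at 0.27. Beside Dnase2a, 11 of 15 lysosomal nucleases and hydrolases had a median of 0.07, with Ctsd at 0.19 and Pld4 at -0.12. Beside Hook2, 5 of 8 Hook family genes and dynein adaptors had a median of 0.12, with Bicd2 at 0.24 and Fam160a2 at 0.12. The other 3 nuclear factor I genes beside Nfix had a median of -0.02, with Nfic at -0.03 and Nfib at -0.02.

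Over the 14 arrays, the 36 pairs among the 9 genes had a median Pearson r of -0.051 (quartiles -0.35 and 0.28), against 0.0078 (-0.39 and 0.40) over all gene pairs, as a description only, since the points share genotype, number run and RNA input. The highest pair was Farsa and Prdx2 (r = 0.723) and the lowest Calr and Nfix (r = -0.734). In the lowest pair, wild-type array 2 held both the highest Calr value (12.81) and the lowest Nfix value (5.80), and its part in that r was not tested. Farsa and Calr, side by side on the chromosome, gave 0.463, and Junb and Hook2, also side by side, -0.108.

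By the same measure, none of the 9 genes was among the closest 2 of another, which says little with 12393 genes to pick from. The closest 2 were picked for the highest r over 14 arrays, so their values are selected maxima and a description only. Farsa was most like Atp5a1 (r = 0.957) and Eif4h (0.942), Prdx2 most like Fancl (0.952) and Mpp6 (0.934), and Gcdh most like Etfbkmt (0.91) and Nit2 (0.906). For Dnase2a these were Zdhhc12 (0.898) and Dbi (0.885), for Calr Crip2 (0.933) and Stx7 (0.91), and for Lyl1 Ppox and Tspan32 (both 0.877). For the dim probe sets they were Lgals12 (0.879) and Mfsd4b1 (0.878) for Junb, Mdn1 (0.8) and Trim15 (0.785) for Hook2, and Bfsp1 (0.959) and Esr2 (0.946) for Nfix. Klf1 was most like Arrb1 and Tfrc (both 0.952).

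Markers of other cell types also gave signal in the captured material. Erythroid markers had mean log2 levels of 10.16 to 11.26 over the wild-type arrays, 10.19 to 10.45 in KLF1-/- and 9.98 to 10.77 in KLF1-/- KLF2-/- and so gave signal in every sample. That list includes Klf1 and Tfrc (-1.51 in the mean comparison), so its level is not a reading apart from the targeted gene. In that comparison 3 of its 12 measured genes had a limma unadjusted p under 0.05, all lower, against 3.09% of all genes. Visceral endoderm markers, 13 of 14 measured, were at 10.34 to 11.90 in wild type, 10.96 to 11.48 in KLF1-/- and 10.84 to 11.06 in KLF1-/- KLF2-/-. Mesenchyme markers (14 of 14) were at 8.69 to 9.34, 8.78 to 9.39 and 9.17 to 9.36, and endothelial markers (14 of 14) at 6.88 to 7.16, 6.99 to 7.34 and 7.06 to 7.20. Fewer cells of a type and less RNA per cell cannot be told apart in such samples, and the part of other cells in the neighbours' values was not tested.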

How the data were processed

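The authors deposited 1 log2 value per probe set and array; per the submitters' processing notes, GCOS, RMA, affy and limma were used, with no versions named. RMA corrects background, normalizes between arrays and compresses differences between dim probe sets. Array medians ran from 6.55 to 6.66 and interquartile ranges from 2.31 to 3.12; the number of arrays limits the precision, and no 2 arrays held identical values. Of 22690 probe sets, 64 controls were left out and 22626 tested; the platform annotation paired 20380 with a single gene, 691 with several and 1555 with none, and updating symbols through RefSeq changed 0.

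One model over all 14 arrays, with a mean per genotype, was fitted by lmFit and eBayes of limma (version 3.58.1, under R 4.3.3), with two-sided tests (Benjamini-Hochberg adjustment over all probe sets of a comparison, threshold 0.05); intervals are 95% intervals of that fit. Tables and plots were made in Python 3.11.15 with pandas 2.3.3, numpy 2.4.6 and matplotlib 3.10.9. On simulated data with 22626 probe sets, the KLF1-/- comparison called 72% of 50 probe sets raised by 1 log2 unit and 78% of 50 lowered by 1. It also made 12 false calls. The simulation held larger changes too, and its noise was independent, with no number run or shared array effect. These shares therefore do not give the power in the real data, where Klf1 at -1.22 was not called in that comparison. The members and gene lists were chosen with earlier results of these data known.

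Named genes are the members, Klf1 and Klf2 with all their probe sets, the called genes of each list, the 2 of each list with the smallest p in the mean comparison, and for each member the 2 genes with the highest Pearson r; Adcy7 and Tcim were named after their values were seen. A gene's level in a list is that of its brightest probe set by mean. Alternatives covered the number run as a block or own-run controls, 1 probe set per gene, a filter on dim probe sets, 2 other normalizations, a trend and robust prior, array weights, a Gapdh RNA quality covariate, only the 2 groups compared, and leaving out each array.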

Additional observations from a re-analysis of the deposited data

Results flagged for a closer look

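The brightest Nfix probe set (1436364_x_at) read 5.80 on wild-type array 2, the lowest of the 8 wild-type arrays, and its gap to the next lowest array exceeded the Dixon critical value of 0.526 for 8 samples as a share of the range. It was the only outlier among 18 probe sets of the neighbours, Klf1 and Klf2 examined in wild type. This rule marks a small share of groups by chance. The Calr probe sets were highest on this same array.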

How the results depend on the processing

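Across 26 other settings, no neighbour was called except with array weights, a fit that did not converge and gave a single KLF1-/- KLF2-/- array a weight of 93. Without that setting, the lowest adjusted p of a neighbour was 0.732 in limma. The median difference of the 9 neighbours ran over these settings from -0.02 to 0.08 in KLF1-/-, -0.06 to 0.07 in KLF1-/- KLF2-/-, -0.15 to 0.09 between the mutant groups and -0.05 to 0.06 in the mean, so its sign turned in each. Of 1492 neighbour differences recomputed without that fit, 212 turned sign, so the sign of a small difference is not settled. These still include array weights held by a strong prior, a setting added after seeing the data. The largest difference to turn, reported at 0.33 (Gcdh in KLF1-/-), did so with those strong-prior weights. The array count limits what can be seen: dim probe sets, 8 of 16 here, are compressed.

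Array weights called 1 neighbour probe set in KLF1-/-, 4 in KLF1-/- KLF2-/-, 10 between the mutant groups and 1 in the mean comparison, out of 1494, 4704, 13656 and 716 over all probe sets. They turned the sign of 25 of 64 neighbour differences, of which 6 were also called, namely between the mutant groups for Gcdh (0.66), Lyl1 (0.21), Prdx2 1430979_a_at (0.35), Nfix 1423493_a_at (-0.10) and Nfix 1436363_a_at (-0.14), and in KLF1-/- for Hook2 (-0.33); the cause was not tested. Weights with a strong prior, added after seeing the data, called 15, 37, 1 and 44 probe sets.

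The count of all probe sets called, 6 in KLF1-/-, was 2 with the number run as a block and 1 with own-run controls only. For KLF1-/- KLF2-/- it was 5, and became 8 with 1 probe set per gene, 8 without dim probe sets, 9 after quantile normalization, 10 with a trend and robust prior and 12 with the block plus a common interquartile range, a combination added after seeing the data. Between the mutant groups it was 0, and 1 with 1 probe set per gene, without dim probe sets, after quantile normalization or with a common interquartile range. For the mean of both it was 16, and 31 after quantile normalization, 29 with a common interquartile range and 34 with that and the block. Leaving out each array in turn gave 2 to 7 calls, 1 to 7, 0 to 1 and 6 to 25, with 0 neighbours each time. The arrays whose loss moved a count by over 1.5 times were KLF1-/- arrays 6 and 8 for KLF1-/- (2 each), KLF1-/- KLF2-/- arrays 13 and 14 (1 each), KLF1-/- array 8 and wild-type array 10 (2 each) and wild-type arrays 1, 2, 3, 11 and 12 (3 each) for KLF1-/- KLF2-/-, and KLF1-/- array 5 (1) between the mutant groups. For the mean they were arrays 5, 10, 11 and 13 (6 each), 4 and 15 (8 each), 14 (9), 8 of KLF1-/- (10) and 9 (25). Own-run controls gave no value for the last 2 comparisons, and the fit of only the groups compared gave none for the mean. No paired analysis was possible because title numbers are unique to each array.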
